A study of Homo sapiens with 12 samples.

Results

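ZNF genes encode zinc finger proteins, most of them of the C2H2 kind, in which short loops folded around a zinc ion read DNA or, in some proteins, RNA. The largest subgroup carries a KRAB domain, which recruits the corepressor TRIM28 and with it histone and DNA methylation, and is best known for silencing retroelements. Many of these genes lie in clusters on chromosome 19. 7-methylguanosine (m7G) is the nucleotide of the mRNA cap and is also found at internal positions of tRNA and mRNA, where METTL1 with its partner WDR4 is the best known methyltransferase.

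The members described here are all peak regions that overlap the RefSeq body of a protein-coding gene whose symbol is ZNF followed by a digit. They number 258 of the 9958 regions in the deposited table. They fall in 144 of the 510 such genes in RefSeq and in 4 of 7 readthrough symbols, which join a ZNF gene to a neighbour. Gene names and gene bodies chose them among the deposited peaks. The peaks themselves were called by the authors for enrichment in IP, so every member had passed that call in KD or in NC.

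All 12 libraries came from THP-1 cells, a human monocytic leukaemia line, made adherent with the phorbol ester PMA at 100 ng/ml for 48 h, and from polyadenylated RNA. KD is the derivative with a short hairpin against METTL1 and NC its control. The design text calls the control wild type, the labels do not say whether NC carries a control hairpin, and nothing in them says whether KD is 1 clone or whether the libraries came from separate cultures, so the p-values measure the spread between libraries. IP is the m7G immunoprecipitate and IN, taken as its input, the RNA before it, with 3 libraries in each of KD IP, KD IN, NC IP and NC IN. No peak overlapped METTL1, so the knocked-down gene was not measured in these values.

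Reads in all regions came to between 1476384 and 1888972 in an IP library and between 907024 and 1105477 in an IN library. ZNF regions took 0.606% to 0.637% of them in KD IP, 0.342% to 0.356% in KD IN, 0.893% to 1.10% in NC IP and 0.467% to 0.547% in NC IN. Reads shared by overlapping KD and NC peaks count in both. Counted so, ZNF768 alone had 50815 reads over the 12 libraries and the next gene, ZNF318, 8066. These shares therefore depend strongly on ZNF768 and do not describe the ZNF genes evenly. The labelled cell type was checked against its markers. Of 20 monocyte and macrophage genes 10 had a peak, CD14 and CSF1R not among them, and none of the 7 pan-leukocyte genes (PTPRC, CORO1A, LCP1, SRGN, CD53, WAS and VAV1) had one. Peaks were called for enrichment in IP, so a gene without one was not measured here and may still be expressed. Of 17 genes of kidney-derived or neuronal lines, a list chosen with earlier results of these data known, 15 had a peak, and their summed level was 2896 to 3467 CPM, reads scaled to the total over tested regions, in KD IN and 15750 to 16070 CPM in NC IN. Of their 23 tested regions 2 were higher and 21 lower in KD than in NC, in input and likewise in IP. The median log2 of KD over NC in these regions was -8.2 in input and -4.16 in IP. The 10 monocyte and macrophage genes with a peak summed to 3488 to 3801 CPM in KD IN and 1847 to 2052 CPM in NC IN. Of their 15 tested regions 11 were higher in KD input and none lower, with a median log2 of KD over NC of 0.83 in input and 0.78 in IP. Over all 5113 tested regions 17.9% were higher and 21.9% lower in KD input. Whether the NC libraries came from the labelled line cannot be told from these values. Each KD over NC value below compares the libraries labelled KD and NC, and the part of these marker differences in it was not tested.

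To show where IP signal met the start of a ZNF transcript, 5 genes are printed whose tested peak covered an annotated start and was higher in IP than in IN in KD. Each sequence holds the 70 bases before the RefSeq start and the first 30 bases from it, from GRCh38.p14, 5′ to 3′ on the strand of the gene. Capitals mark the bases that lie inside the peak.
ZNF106, chr15:42491112-42491211, minus strand: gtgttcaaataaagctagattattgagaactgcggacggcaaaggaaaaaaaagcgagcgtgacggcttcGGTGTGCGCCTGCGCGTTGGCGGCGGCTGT
ZNF274, chr19:58182991-58183090, plus strand: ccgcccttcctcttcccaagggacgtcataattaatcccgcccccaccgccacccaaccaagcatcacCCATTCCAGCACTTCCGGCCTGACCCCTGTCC
ZNF281, chr1:200410007-200410106, minus strand: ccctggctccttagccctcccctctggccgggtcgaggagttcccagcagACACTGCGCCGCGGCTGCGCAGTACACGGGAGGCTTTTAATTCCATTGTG
ZNF335, chr20:45972174-45972273, minus strand: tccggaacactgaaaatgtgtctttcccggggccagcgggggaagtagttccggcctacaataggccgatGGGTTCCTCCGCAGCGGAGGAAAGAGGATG
ZNF771, chr16:30407536-30407635, plus strand: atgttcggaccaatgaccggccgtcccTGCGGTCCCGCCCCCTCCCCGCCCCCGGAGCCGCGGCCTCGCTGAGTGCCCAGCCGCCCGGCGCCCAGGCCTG
In ZNF106 and ZNF335 the peak began on the annotated first base itself, so that 30 of the 100 printed bases are capitals, against 32 in ZNF274, 50 in ZNF281 and 73 in ZNF771. Over all 24 ZNF peaks that covered an annotated start, 12 had their 5′ edge exactly on it, against 34.4% of the 1511 such peaks in other genes. How the peak edges were set was not stated in the sources used here.

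Starts were covered by a minority of peaks. Among peaks on the strand of a gene with a listed start, 12.1% of 199 ZNF peaks covered one, against 21.4% of 7059 other peaks. A midpoint within 500 bases of a start was found for 21.6% of the ZNF peaks and 34.5% of the others. Along the gene body from 5′ to 3′, 24.8% of the 258 ZNF peaks had their midpoint in the first 10% (exact binomial 95% interval 19.7 to 30.5), against 33.7% of the 8827 other peaks lying in 1 coding gene (32.7 to 34.7). In the last 10% the shares were 34.9% of ZNF peaks (29.1 to 41.0) and 28.3% of the others (27.4 to 29.2). The intervals for the first 10% lie apart, and those for the last 10% touch. The remaining 40.3% of ZNF peaks and 38.05% of other peaks lay between. These intervals treat peaks as independent, although 94 of the 258 overlapped a peak of the other set and several can lie in 1 gene.

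**Figure D1:**
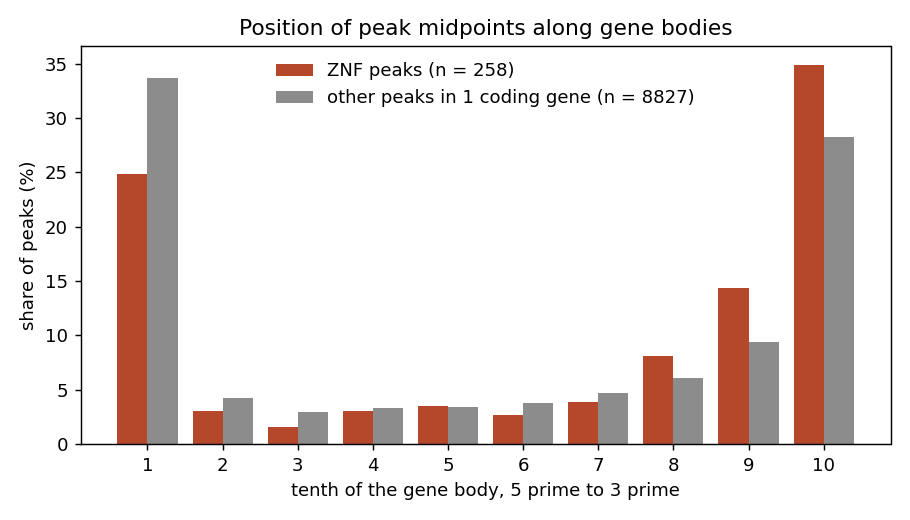
Share of peaks (%) whose midpoint falls in each 10% step of the gene body, 5′ to 3′, for the 258 ZNF peaks (red) and the 8827 other peaks in 1 protein-coding gene (grey). In the first 10% the ZNF share is 24.8% against 33.7%, from 80% to 90% it is 14.3% against 9.38%, and in the last 10% it is 34.9% against 28.3%.

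The KD and NC peak sets were also placed separately. In the first 10% of the gene lay 22.1% of the 131 KD peaks (15.4 to 30.2) and 27.6% of the 127 NC peaks (20.01 to 36.2), and in the last 10% lay 35.1% (27.0 to 43.9) and 34.6% (26.4 to 43.6). A peak of the other set was overlapped by at least 1 base in 36.4% of ZNF peaks (30.6 to 42.6), against 39.2% of other peaks (38.2 to 40.2). By gene symbol, 52 had peaks in both sets, 44 in the KD set alone and 47, with the readthrough ZNF511-PRAP1, in the NC set alone. Since 1 set of peaks was called per condition, these counts have no replicates.

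Counting each peak under 1 gene symbol, 78 of 143 ZNF symbols, the readthrough ZNF511-PRAP1 among the 143, had a single peak. The most were 6 in ZNF316, 5 in ZNF503, a developmental transcriptional repressor, and 5 in ZNF646. Another 10 genes had 4 each, among them ZNF219, ZNF385A and ZNF469, a gene of brittle cornea syndrome. Overlapping KD and NC peaks are counted singly here. A peak of the other set was overlapped by 5 of the 6 in ZNF316, 4 of the 5 in ZNF503 and 0 of the 5 in ZNF646. Chromosome 19 held 66 of the peaks in 47 genes, of 246 RefSeq ZNF genes there. Elsewhere 96 symbols had a peak, the readthrough ZNF511-PRAP1 among them, beside 264 RefSeq ZNF genes counted without readthroughs. A ZNF peak had a median of 38 reads over the 12 libraries (8 to 15966), against 89 for other peaks (1 to 603354), with the same median length of 181 bases. The median fold enrichment that the authors gave their peak calls was 12.3 for the KD set and 9.82 for the NC set in ZNF genes, and 9.25 and 8.59 in other genes.

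Promoters were searched for short motifs. In RefSeq windows of 250 bases before to 50 after the start, searched on both strands, the ETS-like letters CCGGAAG occurred in 44.2% of 120 ZNF genes with a peak, in 39.8% of all 437 ZNF genes with a window and in 14.2% of the 15843 coding genes with one, ZNF genes included. The GC box GGGCGG occurred in 65.0%, 63.8% and 58.5% of the same groups, and CCAAT in 37.5%, 48.3% and 36.4%. TATAAA occurred in 3.3%, 3.0% and 9.6%, and ACTACAA, letters from the site of the activator ZNF143, in 7.5%, 5.5% and 3.1%. No motif contains another, though neighbouring matches may share bases, and a match is not evidence of binding.

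The counts allowed a test of 90 ZNF regions (34.9% of the 258, against 51.8% of other regions), in 48 genes. The 168 others had between 8 and 95 reads in all, with a median of 24, and 47 of them had no read in KD IN and 28 none in NC IN. KD and NC peaks that overlap share reads, so the 90 regions make up 58 separate clusters. A region could pass the count filter with under 3 of the 6 input libraries at the minimum, helped by IP libraries in which it was high. Of the 90 ZNF regions 38.9% did so, against 21.2% of all 5113 tested regions, and for these a high IP over input is partly set by the filter. In the same way, a region high in 1 condition could pass through the libraries of that condition. Among those that did were ZNF276, ZNF280B, ZNF704 and ZNF48 (chr16:30399035-30399244) through NC, and ZNF296 through KD IN. Another was the ZNF366 region higher in KD IP, which reached the minimum in 2 IP libraries and 1 input library. The KD over NC values of these regions are partly set by the filter.

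In the knockdown, m7G IP over input was higher in 33 tested ZNF regions and lower in 4 (adjusted p under 0.05). Over all tested regions, 44.9% were called, 23.5% higher and 21.4% lower. The median log2 of IP over input was 0.94 for the ZNF regions and 0.23 for all tested regions. In the control 31 ZNF regions were higher and 10 lower, where 46.7% of all tested regions were called, 22.7% higher and 24.0% lower, and the medians were 0.77 for ZNF regions and 0.13 for all. Among the 55 ZNF regions that passed the filter on input reads, 34.5% were higher and 7.3% lower in KD (20.7% and 27.2% of the 4029 such regions in all), and 27.3% and 18.2% in NC (18.5% and 30.4% in all). The medians of these regions were lower, 0.53 for ZNF and -0.05 for all in KD, and 0.12 for ZNF and -0.14 for all in NC. In KD and NC together 21 regions in 10 genes were higher in both (63.6% of those higher in KD and 67.7% in NC). Lower in both were 4 regions in 3 genes, of 4 lower in KD and 10 in NC, and none was called in opposite directions. Over all tested regions, 67.9% of those higher in KD and 70.2% of those higher in NC were higher in both. Of those lower, 82.3% in KD and 73.5% in NC were lower in both, and 11 regions were called in opposite directions. Scaled levels of the 3 IP libraries all above the 3 IN libraries, or all below, were found for 46 and 6 ZNF regions in KD (56.6% of all tested regions were one or the other) and for 48 and 15 in NC (57.8% of all). At an unadjusted p under 0.05 there were 45 ZNF regions in KD, with 53.1% of all, and 54 in NC, with 53.7% of all.

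Values were then split by position. In KD, 18 of the 36 tested ZNF regions in the first 10% of the gene were higher and none lower (29.4% and 14.1% of all tested regions there), and in NC 12 were higher and 2 lower (29.5% and 14.9% of all). Of these 36, 20 passed the filter on input reads, with 10 higher and none lower in KD and 4 higher and 2 lower in NC. Of all 1465 input-passing regions in the first 10%, 27.6% were higher and 18.8% lower in KD, and 25.9% and 19.7% in NC. The median log2 of the 20 ZNF regions was 0.95 in KD and 0.71 in NC, against 0.20 and 0.19 for all input-passing regions there. For the 14 input-passing ZNF regions in the last 10% the medians were 0.61 in KD and 0.74 in NC (-0.16 and -0.31 for all), and for the 21 between they were 0.15 and -0.30 (-0.27 and -0.39 for all). On chromosome 19 only 7 of the 14 tested ZNF regions passed on input reads, with medians of 0.94 in KD and 1.06 in NC, against 0.50 and 0.02 for the 48 on other chromosomes.

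**Figure D2:**
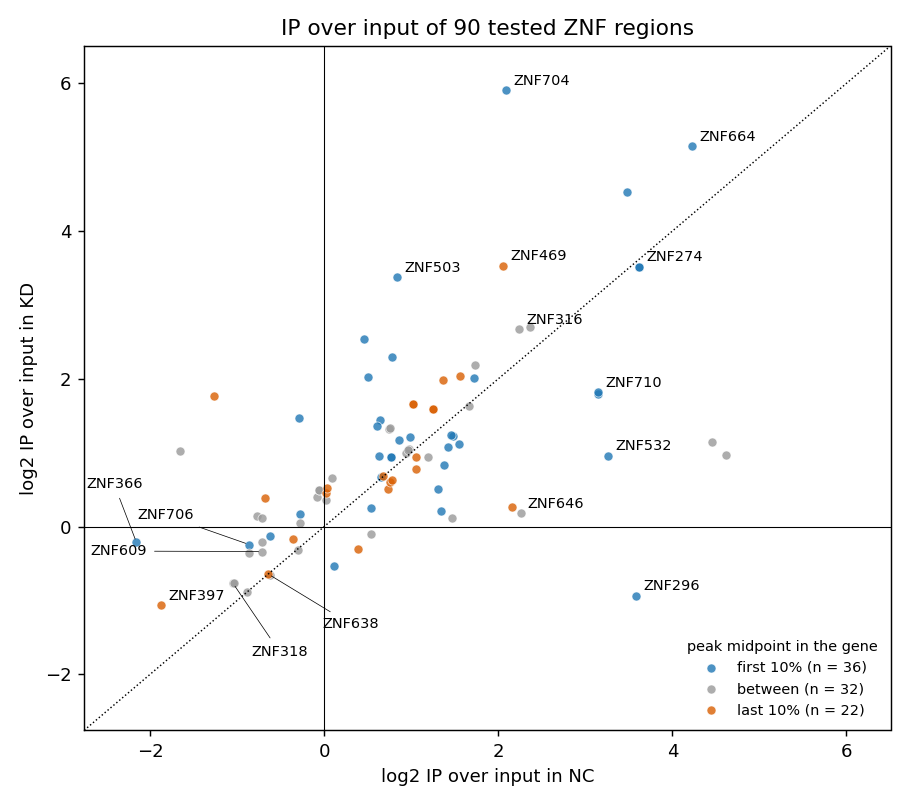
Log2 of IP over input for the 90 tested ZNF regions, in KD (vertical) against NC (horizontal), one point per region, coloured by the place of the peak midpoint in the gene; the dotted line marks equal values. ZNF704 (2.09 in NC, and in KD a fitted 5.91 that is no bound, since its input had 0 reads) and the 5′ region of ZNF664 (5.15 and 4.23) lie farthest up, and ZNF318 (-0.77 and -1.05) is low in both.

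ZNF768, which binds sites in MIR repeat elements, had the most reads of all ZNF genes, with overlapping KD and NC peaks at each of its sites. Its 3′ region, chr16:30524094-30524693 at 95.4% of the gene body, had 1255, 1238 and 1112 reads in KD IP, 205, 214 and 222 in KD IN, 3959, 2837 and 2854 in NC IP, and 666, 563 and 836 in NC IN. Every IP library was above every IN library of the same condition, and KD was below NC on both sides. IP over input was 1.60 ± 0.13 on the log2 scale in KD (SE, n = 3 against 3, adjusted p = 5.22e-10) and 1.25 ± 0.12 in NC (adjusted p = 7.7e-09). A second region at 73.8% of the body, chr16:30525922-30526526, had log2 values of 1.33 ± 0.13 in KD and 0.74 ± 0.12 in NC. It lies at an annotated start of the gene, with its 5′ edge 40 bases past it. The overlapping KD peak at 71.9% of the body covered that start, and its window is not among those printed.

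The regions of ZNF274, ZNF704, ZNF469, ZNF532, ZNF710, ZNF646, the 5′ end of ZNF664, the ZNF316 regions at 89.4% and 89.8% of the body and the ZNF503 region at 0.6% all passed the filter with under 3 input libraries at the minimum. Their values of IP over input are given as a description, since the filter favoured regions high in IP.

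ZNF274 recruits the histone methyltransferase SETDB1 to the 3′ exons of ZNF genes, and is one of 2 members of the retroelement-silencing list of 6 with a peak, besides ZNF417, which silences endogenous retroviruses. The region over its start, chr19:58183059-58183269, the one whose window is printed above, had 17, 35 and 18 reads in KD IP, 2, 1 and 0 in KD IN, 27, 23 and 26 in NC IP, and 3, 0 and 0 in NC IN. IP over input as a ratio of summed scaled reads was 12.5 in KD (95% counting interval 4.12 to 62.2, adjusted p = 0.00143) and 13.0 in NC (4.29 to 64.5, adjusted p = 0.00103). All NC IN reads fell in 1 library, and without it input had 0 reads and the fitted log2 value in NC was 7.40, which is no bound, against 3.62 with it. In KD it was 4.37 without KD IN library 1, against 3.52 with it. Input reads at ZNF417 were 2 in KD and 7 in NC, and its region was not tested.

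ZNF664 had peaks at both ends. Its 5′ region chr12:123973445-123973595, at 0.7% of the gene body, had 28, 32 and 24 reads in KD IP, 1, 0 and 0 in KD IN, 20, 14 and 11 in NC IP, and 1, 0 and 0 in NC IN. The ratio of IP over input was 45.1 in KD (7.88 to 1800) and 23.1 in NC (3.94 to 934), with adjusted p of 7.29e-05 and 0.00127. A single input read in each condition sets these ratios, and without the library that held it input had 0 reads and the fitted log2 value was 7.39 in KD and 6.63 in NC, neither of which is a bound. At the 3′ end of the same gene, chr12:124013973-124014421, log2 IP over input was 0.60 ± 0.20 in KD and 0.75 ± 0.18 in NC. The KD call at the 3′ end was lost without KD IP library 3 or KD IN library 2 or 3 (adjusted p from 0.0574 to 0.105).

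ZNF704 was the only tested ZNF gene without an input read in KD. It had 6, 13 and 11 reads in KD IP, 0, 0 and 0 in KD IN, 74, 44 and 45 in NC IP, and 4, 10 and 5 in NC IN. IP was at least 5.41-fold higher than input in KD, computed against a floor of 3 reads over the group, and 2.09 ± 0.53 on the log2 scale in NC. Without NC IN library 2 the NC value was 2.70.

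Other high values in KD came from ZNF469 (log2 3.53 ± 0.84, adjusted p = 0.00133, 2.93 without KD IN library 1), ZNF503 (3.38 ± 1.11, adjusted p = 0.0161, over 1 read in KD IN) and ZNF316 (2.67 ± 0.56, adjusted p = 0.000404). As a ratio of scaled reads ZNF503 was at 12.9 (2.1 to 530). The ZNF503 call rested on single libraries, with an adjusted p of 0.0683 without KD IN library 2 and 0.0597 without library 3, and a fitted log2 value of 5.61 without library 1, no bound because input then had 0 reads. In ZNF316, the gene with the most peaks, the region at 89.8% of the body had a log2 value of 2.70 ± 0.57 in KD and 2.37 ± 0.58 in NC, and 3.37 in KD without KD IN library 1. About 3 kilobases upstream, its region at 75.6% had 0.12 ± 0.28 in KD and -0.72 ± 0.30 in NC, and the difference between the sites was not tested.

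Further high values in NC came from ZNF296 (log2 3.58 ± 1.12, with 1 read in NC IN), ZNF532 (3.26 ± 0.75) and ZNF710 (3.15 ± 0.94) and ZNF646 (2.26 ± 0.88). ZNF532, a partner of the chromatin reader ZMYND8, had 36, 39 and 20 reads in KD IP, 11, 11 and 4 in KD IN, 19, 33 and 26 in NC IP, and 1, 3 and 0 in NC IN. Its libraries did not overlap between IP and IN in either condition, but the KD value of 0.96 ± 0.54 missed the threshold (adjusted p = 0.148). Without NC IN library 2 the NC value of ZNF532 was 4.67, and that of ZNF646 a fitted 7.05. The NC call of ZNF710 was lost without NC IP library 2 (adjusted p = 0.0538), and its value was 4.11 without NC IN library 3. That of ZNF296 was a fitted 6.01 without NC IN library 3. The fitted values of ZNF646 and ZNF296 are no bounds, since input then had 0 reads. The ZNF296 peak also overlaps GEMIN7. As ratios of scaled reads, with 1 to 3 reads in NC IN, ZNF296 was at 14.4 (2.38 to 588) and ZNF710 at 9.42 (3.06 to 47.1). ZNF706 had 2 further overlapping regions with 1 read in NC IN, of which the larger was at a ratio of 30.3 (5.24 to 1220) in NC (adjusted p = 0.00287) and did not pass in KD (adjusted p = 0.257). Both ZNF706 regions reached the count minimum in 1 input library and 5 IP libraries. Their values are likewise given as a description, since the filter favoured regions high in IP. The ZNF646 call was lost without any single NC library other than IN library 2, with adjusted p from 0.0659 to 0.127.

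IP was below input at ZNF318 and ZNF638 in both conditions. ZNF318, whose mouse counterpart governs the switch between IgM and IgD transcripts in B cells, had 473, 502 and 422 reads in KD IP, 440, 488 and 356 in KD IN, 237, 212 and 217 in NC IP, and 239, 239 and 228 in NC IN at chr6:43340298-43340795. Its level was 254.8 ± 6.4 CPM in KD IP and 433.5 ± 41.3 CPM in KD IN, and 131.4 ± 5.45 CPM in NC IP and 272.0 ± 26.8 CPM in NC IN (SD, n = 3 each). IP over input was -0.77 ± 0.12 in KD (adjusted p = 1.03e-05) and -1.05 ± 0.13 in NC (adjusted p = 2.55e-07). ZNF638, an RNA-binding splicing cofactor that also silences unintegrated retroviral DNA, was at -0.64 ± 0.17 in KD and -0.64 ± 0.16 in NC at its 3′ end, chr2:71434799-71434979.

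In NC alone, IP was below input at ZNF366 (log2 -2.16 ± 0.70), known as a dendritic cell factor, ZNF397 (-1.87 ± 0.61), ZNF706 (-0.86 ± 0.21), the second ZNF638 region (-0.86 ± 0.17) and ZNF609 (-0.71 ± 0.26), the source of a well studied circular RNA. The KD values at these regions ran from -1.06 ± 0.63 at ZNF397 to -0.21 ± 0.60 at ZNF366, and all missed the threshold. Without 1 NC library, calls in NC were lost at ZNF366 (adjusted p up to 0.0736), ZNF397 (up to 0.0884) and ZNF609 (up to 0.169), while without NC IP library 3 the value at ZNF397 was -2.60. The ZNF397 peak also lies in ZSCAN30. It reached the count minimum in 5 input libraries and 1 IP library, and the ZNF366 region in 3 input libraries and 2 IP libraries. Both passed the filter through input, which favours values of IP below input, so these 2 values are given as a description.

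Members of known function were few among the tested regions. Of 9 ZNF genes with roles in RNA or translation, ZNF106, ZNF638 and ZNF207 had a peak, and ZNF207, a spindle and splicing protein, had under the reads needed for a test. ZNF106, which binds RNA, had 162, 148 and 156 reads in KD IP, 46, 42 and 53 in KD IN, 110, 111 and 92 in NC IP, and 15, 35 and 11 in NC IN at its 5′ end, in a peak that also overlaps SNAP23. In scaled reads every IP library was above every IN library of its condition, with log2 values of 0.83 (adjusted p = 0.0163) in KD and 1.38 (adjusted p = 0.000834) in NC.

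Of 11 members of chromatin complexes 9 had a peak, but only 6 of their 21 regions were tested, none passed in KD, and 1, in ZNF532, passed in NC. ZNF592, a partner of ZNF532, had a log2 value of -0.17 in KD and -0.36 in NC, both short of the threshold, while ZNF687, ZNF516, ZNF827, ZNF618 and ZNF462 had too few reads. Both regions at the start of ZNF451, a SUMO ligase, missed it too (log2 1.18 and 1.21 in KD, 0.86 and 0.99 in NC). Among 7 sequence-specific activators, ZNF281, ZNF335, ZNF384 and ZNF143 had a peak. At the starts of ZNF281, a regulator of stem cell genes, and ZNF335, a subunit of a histone H3 methyltransferase complex, shown among the sequences, log2 IP over input was 0.94 and 1.08 in KD (adjusted p = 0.0179 and 0.032). The NC values were 0.77 (adjusted p = 0.0508) and 1.42 (adjusted p = 0.0152). ZNF384 missed the threshold in both conditions, and ZNF143, whose 47 reads were spread over all groups, was not tested.

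METTL1 knockdown was then compared with the control, first in input, where fewer cells expressing a gene and less RNA per cell cannot be told apart. Input was higher in KD at 11 of the 90 ZNF regions and lower at 19 (39.8% of all tested regions were called, 17.9% higher and 21.9% lower). The median log2 of KD over NC was -0.18 for ZNF regions and -0.01 for all. In IP, 11 ZNF regions were higher and 17 lower (41.0% of all, 20.9% higher and 20.1% lower), with medians of -0.08 and 0.05. Shares of lower calls thus lay near the background, and those of higher calls (12.2% on both sides) below it. Among the 22 tested ZNF regions in the last 10% of the gene, 9 were lower and 1 higher in input, and 8 were lower and 2 higher in IP. For all tested regions there, 26.0% were lower and 20.1% higher in input, and 22.8% and 21.1% in IP. Some of these ZNF regions overlap each other. By gene, 6 of 16 ZNF genes had a lower region there in input and 5 in IP, against 185 and 149 of 628 genes in all.

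Input and IP went the same way where both were called. In 15 regions of 9 genes KD was lower in both, which is 78.9% of the regions lower in input and 88.2% of those lower in IP. In 5 regions of 2 genes, ZNF318 and ZNF697, KD was higher in both (45.5% of each), and no region was called in opposite directions. Over all tested regions, 70.7% of those lower in input and 76.7% of those lower in IP were lower in both. Of those higher, 73.8% and 63.4% were higher in both, and 3 regions were called in opposite directions.

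**Figure D3:**
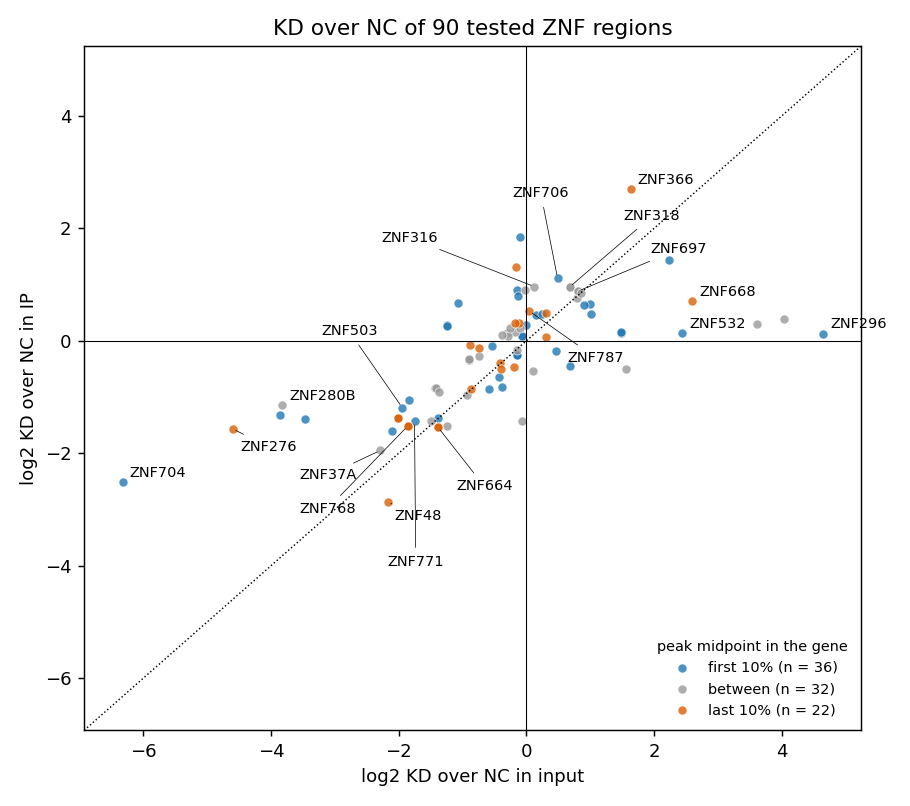
Log2 of KD over NC for the 90 tested ZNF regions, in IP (vertical) against input (horizontal), one point per region, coloured by the place of the peak midpoint in the gene; the dotted line marks equal values. Points at the lower left, ZNF704 (-2.51 in IP, and a fitted -6.33 in input that is no bound, with 0 reads in KD IN), ZNF37A, ZNF48, ZNF768, ZNF664 and ZNF771, are low on both axes, and ZNF296 and ZNF532 (2.44 in input, 0.13 in IP) are high in input alone.

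ZNF768 had the smallest p of the ZNF regions in both comparisons. Its 3′ region averaged 658.8 ± 38.1 CPM in KD IP against 1887 ± 185 CPM in NC IP, and 218.1 ± 20.3 CPM in KD IN against 791.7 ± 151 CPM in NC IN (SD, n = 3 each). KD over NC was -1.86 ± 0.13 in input (adjusted p = 2.87e-11) and -1.52 ± 0.12 in IP (adjusted p = 2.46e-10). All 4 of its regions were lower in both, and the 2 at 71.9% and 73.8% of the body had values of -1.42 and -1.43 in input and -0.85 and -0.85 in IP.

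The 3′ region of ZNF664 had 160, 154 and 158 reads in KD IP, 73, 51 and 44 in KD IN, 481, 456 and 342 in NC IP, and 164, 95 and 133 in NC IN. Its log2 KD over NC was -1.39 ± 0.20 in input (adjusted p = 4.91e-06) and -1.54 ± 0.17 in IP (adjusted p = 1.04e-07). At its 5′ end the IP value went the other way, 0.79 ± 0.53 (adjusted p = 0.249), and did not pass. The difference between the ends was not tested.

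ZNF37A, at chr10:38121432-38121672, had 24, 22 and 32 reads in KD IP, 12, 12 and 9 in KD IN, 98, 101 and 84 in NC IP, and 61, 29 and 55 in NC IN. KD libraries lay below NC libraries on both sides, by a log2 value of -2.29 ± 0.35 in input and -1.95 ± 0.30 in IP (adjusted p = 1.18e-05 and 1.16e-05). ZNF48 had 6, 9 and 9 reads in KD IP, 4, 6 and 6 in KD IN, 70, 49 and 48 in NC IP, and 30, 7 and 29 in NC IN at chr16:30399035-30399244. It gave -2.17 ± 0.53 in input and -2.87 ± 0.48 in IP (adjusted p = 0.00199 and 2.62e-05). Both other ZNF48 peaks lie on the strand opposite to the gene and were lower in IP as well, at -1.43 and -1.51.

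ZNF771, at its start (printed above), had 33, 48 and 39 reads in KD IP, 15, 7 and 11 in KD IN, 129, 89 and 85 in NC IP, and 27, 28 and 44 in NC IN. The log2 differences were -1.75 ± 0.37 in input (adjusted p = 0.000495) and -1.43 ± 0.30 in IP (adjusted p = 0.000352). Its IP over input passed in KD (0.96 ± 0.37, adjusted p = 0.0367) but was lost without KD IP library 2 or 3 or KD IN library 2 or 3 (adjusted p from 0.0716 to 0.181). ZNF704 was at least 7.41-fold lower in KD than in NC input, with 0 against 19 reads, and at -2.51 ± 0.50 in IP (adjusted p = 0.000279). ZNF503, in 4 of its 5 regions, was lower in input. The region at 1.5% of its body gave -1.95 ± 0.48 in input (adjusted p = 0.00229) and -1.19 ± 0.37 in IP, and KD IN library 3 had no read there, without which the input value was -1.33. Its IP call was lost without NC IP library 3 (adjusted p = 0.0512). The region at 0.6% of the body gave -3.86 ± 1.13 in input, or a fitted -6.07, no bound, without KD IN library 1, whose read was the only one, and with 1 read in KD IN its NC over KD ratio was 18.1 (2.81 to 758). This region reached the count minimum in 3 IP libraries and 1 input library, the latter in NC. The filter may thus have favoured it for its reads in NC, and its KD over NC value is given as a description.

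Lower in input, and short of the threshold in IP, were ZNF276 (log2 -4.60 ± 0.87 in input, with 2 reads in KD IN and 49 in NC IN, and -1.57 ± 0.65 in IP, adjusted p = 0.0563) and ZNF280B (-3.83 ± 0.98 in input, -3.22 without KD IN library 1 or 2 and a fitted -7.42, no bound, without library 3, which held all its KD IN reads, and -1.15 ± 0.81 in IP, adjusted p = 0.279). As NC over KD ratios of scaled reads in input, ZNF276 was at 27.7 (7.27 to 235) and ZNF280B at 15.4 (4.93 to 77.9). Both regions passed the count filter through NC IN, so their input values are given as a description. The ZNF276 peak also lies in FANCA, a Fanconi anaemia gene. The 3′ end of ZNF638 was lower in both, at -0.87 ± 0.16 in input and -0.87 ± 0.16 in IP (adjusted p = 0.000157 and 9.97e-05).

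Higher in both were ZNF318 and ZNF697. At ZNF318, the values in KD were above all NC values in input (log2 0.68 ± 0.12, adjusted p = 9.11e-05) and in IP (0.96 ± 0.12, adjusted p = 7.13e-07). The main region of ZNF697, chr1:119622376-119622766, had 390, 401 and 414 reads in KD IP, 104, 119 and 94 in KD IN, 240, 194 and 178 in NC IP, and 85, 34 and 43 in NC IN. It gave 0.81 ± 0.21 in input (adjusted p = 0.00393) and 0.88 ± 0.18 in IP (adjusted p = 0.000281). A shorter ZNF697 region at 84.2% of the body passed in all 4 comparisons with IP below input, while in the main region IP was above input (1.04 ± 0.19 in KD, 0.97 ± 0.21 in NC). The calls of the shorter region were lost without single libraries (adjusted p up to 0.409 for IP over input in NC).

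ZNF106 was higher in KD input, at 1.02 ± 0.33 (adjusted p = 0.0169), and at 0.47 ± 0.26 in IP, short of the threshold. ZNF296, ZNF668 and ZNF532 also passed in input and not in IP, on low counts. ZNF296 had 16, 12 and 6 reads in KD IP, 14, 13 and 8 in KD IN, 6, 8 and 14 in NC IP, and 0, 0 and 1 in NC IN. Its input difference was 4.64 ± 1.05 (adjusted p = 0.000952), or a fitted 7.06, no bound, without the NC IN library that held the only read, and a ratio of 31 (5.21 to 1260) in scaled reads. At ZNF668 it was 2.60 ± 0.87 (adjusted p = 0.0197), lost without NC IN library 1 or 3 (adjusted p = 0.0741 and 0.0659) and a fitted 6.82, no bound, without library 2, which held all its NC IN reads. The difference of 2.44 ± 0.82 at ZNF532 (adjusted p = 0.0206) was lost without KD IN library 2 or NC IN library 1 or 3, with adjusted p of 0.0524, 0.0594 and 0.0709, and was 3.84 without NC IN library 2. In IP these 3 genes gave 0.13, 0.70 and 0.13, and none passed.

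In IP alone, KD was higher at ZNF366 (2.70 ± 0.92, adjusted p = 0.0202), ZNF706 (1.11 ± 0.20, adjusted p = 5.72e-05), the ZNF316 region at 75.6% of the body (0.96 ± 0.28, adjusted p = 0.00679) and ZNF787 (0.53 ± 0.15, adjusted p = 0.00625). ZNF787 had 709, 693 and 473 reads in KD IP, 93, 85 and 65 in KD IN, 477, 422 and 302 in NC IP, and 69, 56 and 83 in NC IN, and its raw reads overlap between KD IP and NC IP while its scaled levels do not. Its call was lost without NC IP library 3 (adjusted p = 0.0604), and that of ZNF366 without KD IP library 1 or NC IP library 1 or 3 (adjusted p from 0.0514 to 0.109). The ZNF366 value is given as a description, since the filter favoured this region for its reads in KD IP.

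**Figure D4:**
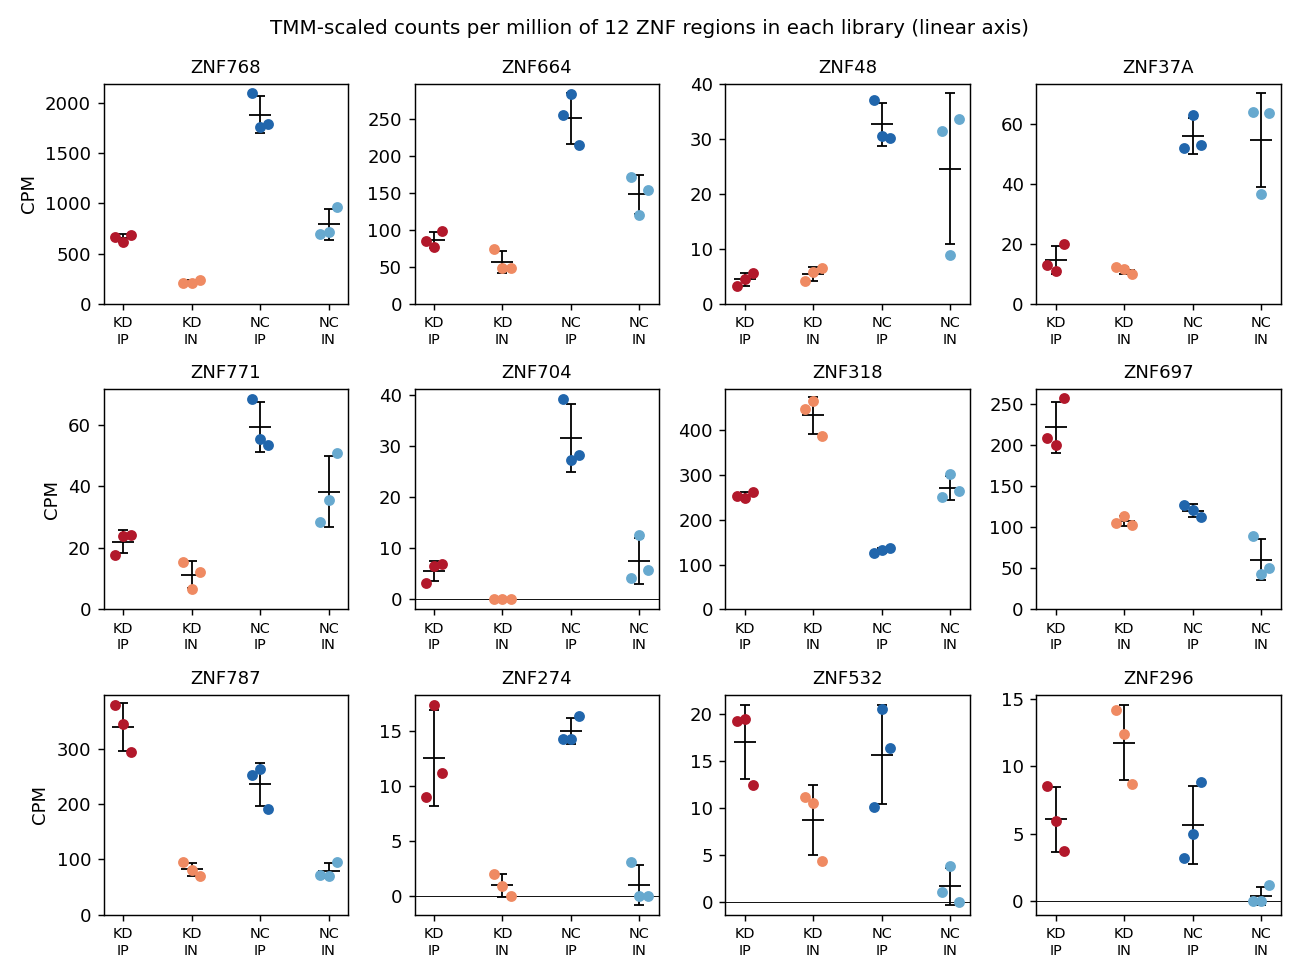
Scaled CPM (linear axes) of 1 region each of 12 ZNF genes in every library, points for libraries, bars for mean ± SD (n = 3), KD IP, KD IN, NC IP and NC IN from left to right. ZNF768, ZNF664, ZNF48, ZNF37A, ZNF771 and ZNF704 are lower in KD, ZNF318 and ZNF697 higher, and ZNF532 and ZNF296 differ in input (8.68 against 1.61 CPM, and 11.8 against 0.385 CPM).

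The last comparison asked whether IP over input itself changed with METTL1 knockdown. With edgeR, 0 of the 90 ZNF regions passed, as did 0.0% of all tested regions, and DESeq2 called 0 as well. At an unadjusted p under 0.05 there were 14 ZNF regions, where 11.9% of all tested regions passed that mark. The median log2 change was 0.30 for ZNF regions and 0.08 for all. Smallest in p were ZNF296 (-4.52 ± 1.28, adjusted p = 0.167), ZNF768 at 73.8% of the body (0.58 ± 0.18, adjusted p = 0.218), ZNF276 (3.03 ± 1.18, adjusted p = 0.328) and ZNF581 (1.52 ± 0.62, adjusted p = 0.346), all short of the threshold.

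ZNF768 shows how this value is made up: IP fell to 503.8 ± 86.6 CPM in KD, against 907.0 ± 94.5 CPM in NC, and input fell to 201.2 ± 15.4 CPM in KD, against 541.3 ± 34.4 CPM in NC, at the region at 73.8%. The ratio was 2.51 in KD and 1.68 in NC. At ZNF581, log2 IP over input was 2.30 ± 0.45 in KD and 0.78 ± 0.41 in NC.

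In the authors' deposited table, 3 ZNF regions had an adjusted p under 0.05 for the change in enrichment, of 78 regions in all (0.783%). They were ZNF202, a repressor of lipid metabolism genes (log2 10.33), ZNF559 (5.88) and ZNF627 (-9.50). None of these had the reads needed for the edgeR test. ZNF202 had 3, 4 and 3 reads in KD IP, 0, 0 and 0 in KD IN, 0, 1 and 1 in NC IP, and 0, 5 and 14 in NC IN. ZNF627 had no read in KD IP, 8, 10 and 9 in KD IN, 7, 4 and 1 in NC IP, and 1, 0 and 0 in NC IN. At ZNF627 input alone had reads in KD, and at ZNF202 IP alone, so these log2 values are fitted over a group at 0 and are no bounds.

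The partners through which KRAB zinc fingers act were read from the same fit. Of 31 genes for KRAB corepressors and heterochromatin proteins, 21 had a peak, in 65 regions of which 45 were tested. IP over input was higher in 8 and lower in 16 of these in KD, and higher in 9 and lower in 17 in NC, with medians of -0.17 and -0.19. Over all tested regions 23.5% were higher and 21.4% lower in KD, and 22.7% and 24.0% in NC. KD over NC was higher in 2 and lower in 14 in input, with a median of -0.26, and higher in 3 and lower in 11 in IP, with a median of -0.13 (17.9% and 21.9% of all tested regions in input, and 20.9% and 20.1% in IP). TRIM28, the KRAB corepressor, had a log2 IP over input of 0.60 in KD (adjusted p = 0.094) and 1.45 in NC (adjusted p = 0.00061) and KD over NC of 0.77 in input (adjusted p = 0.0747). CHD4, the remodeller of the NuRD complex, was lower in KD input in 6 of its 8 tested regions, many of them overlapping, at log2 values from -0.31 to -0.52, and RBBP7, a histone chaperone of the same complex, at -1.27 (adjusted p = 3.24e-09). SETDB1, DNMT1 and HDAC1 had no peak. Other C2H2 zinc finger families, taken for comparison, had 143 regions in 62 genes. Of the 51 tested, 14 were higher and 10 lower in IP over input in KD, and 9 and 9 in NC. These shares are to be read against the same percentages of all tested regions. In the same regions KD over NC was higher in 13 and lower in 10 in input, and higher in 17 and lower in 8 in IP.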

How the data were processed

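The authors deposited 1 table of peak regions with raw read counts per region and library, whole numbers without normalization. Per the file headers it also holds the authors' fold enrichment per peak call as a ratio, a score equal to that fold, p-values and adjusted p-values of the calls, and a log2 change in enrichment with its p-value and adjusted p-value. Per the file headers the length of each region, under "other" units, is in bases. Per the submitters' processing notes, fastp 0.23.4 was used and GRCh38 was the build. The aligner, peak caller and counter are not given in the sources used here. Deposited starts count from 0: of 7237 single-gene peaks, 228 began 1 base before the first base of the gene and 2 on it, so 1 was added, and lengths were taken from the shifted ends.

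Regions were matched to RefSeq gene bodies (GRCh38.p14) whatever the strand. Of the 258 ZNF peaks, 199 lay on the strand of the gene, 15 opposite, and for 44 the strand of the gene was not listed and that of the peak was used for position. After edgeR's filterByExpr, set to a count of at least 10 and a total of at least 15, the two-sided quasi-likelihood test of edgeR 4.0.16 (R 4.3.3) was run with TMM scaling. Each of the 4 groups had its own mean, which left 8 residual degrees of freedom. P-values were adjusted by Benjamini-Hochberg over 5113 regions, with a threshold of 0.05. CPM is per TMM-scaled total over tested regions. Totals cover peak regions alone, so IP over input is relative to the average tested region. Folds against 0 reads used a floor of 3 reads over the group, and intervals and floors cover counting error only. The method was tested on simulated data. Alternatives were DESeq2 1.42.0, other scaling and filters, replicate blocks, member rules and leaving out each library. Replicate numbers were not used to pair libraries in the main fit. Correlations of deviations between same-numbered libraries ran from -0.088 to 0.068, and between IP and IN of 1 condition from -0.019 to 0.068.

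Named genes were, for each comparison, up to 6 with the highest and 6 with the lowest values among called regions whose libraries did not overlap, 1 region per gene (where under 4 passed, the 4 with the smallest p), the authors' own calls, the genes with the most peaks, the regions with the highest input per kilobase, and members of the role lists. Not every one is printed. ZNF282, ZNF428, ZNF784 and ZNF865 are not described one by one. Members, lists and rules were chosen with earlier results of these data known.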

Additional observations from a re-analysis of the deposited data

Results flagged for a closer look

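ZNF627 was singled out because its change in enrichment between KD and NC passed the threshold when the count filter was left out: the log2 value was -9.06 in edgeR (adjusted p = 0.0158), where 0.452% of 9958 regions passed. The authors' deposited table gives -9.50 for the same region (adjusted p = 0.00316). Both values are fitted over a KD IP group at 0 reads, so neither is a bound. Its reads, 0 in KD IP against 27 in KD IN, and 12 in NC IP against 1 in NC IN, are under the filter. ZNF202 and ZNF559 were singled out by the same change in the authors' deposited table, at 10.33 and 5.88 (adjusted p = 0.0476 for both), the first of them over a KD IN group at 0 reads and so no bound, while edgeR without the filter gave adjusted p of 0.0614 and 0.0917. ZNF559 had 7, 0 and 5 reads in KD IP, 0, 1 and 0 in KD IN, 2, 1 and 3 in NC IP, and 20, 4 and 5 in NC IN.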

How the results depend on the processing

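Most counts of called ZNF regions stayed within 1.5 times the reported count. The exceptions were 1 region per overlapping cluster (20 for IP over input in KD), an adjusted p under 0.01 (20 in KD and 27 in NC), no count filter (49 for KD over NC in input and 1 for the change in enrichment) and, chosen after seeing the data, peaks called in both sets (18 for KD over NC in input and 18 in IP). Leaving out 1 library gave 30 to 49 for IP over input in KD, 29 to 50 in NC, 30 to 34 for KD over NC in input, 21 to 33 in IP, and 0 to 0 for the change in enrichment. With a replicate block the counts were 32 for IP over input in KD, 39 in NC, 27 for KD over NC in input, 23 in IP and 0 for the change, and with a replicate block by condition 31 and 38 for IP over input and 0 for the change. The correlation of deviations was highest with the own number for all 3 KD numbers and for 2 of 3 NC numbers between IP and IN, a hint from the data only.

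Scaling by library size alone raised the median log2 of IP over input of all tested regions to 0.395 in KD, against 0.226 with TMM, and to 0.424 in NC, against 0.13. It called 40 ZNF regions higher and 3 lower in KD, and 43 and 6 in NC, where the higher share is 87.8% against 75.6% with TMM. The share of ZNF peaks overlapping a peak of the other set was 23.26% when 50% of both peaks had to be shared and 18.08% when only the 50% of peaks with the higher deposited fold were kept. For the 180 named values, 3298 alternatives gave 95 that were no longer past the threshold, 35 that newly were, and none with the sign reversed. Depth limits these results, since 168 of 258 regions had too few reads for a test.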

Other observations

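Of the 258 ZNF peaks, 15 lay on the strand opposite to their gene, and 12 of these also overlap another coding gene, among them PLCD4 at ZNF142, TMEM253 at ZNF219, ZSCAN21 at ZNF3, ZSCAN30 at ZNF397 and PI4KB at ZNF687. The 3 that do not are both opposite-strand regions of ZNF48, with 213 and 146 reads over 12 libraries, and 1 region of ZNF789 with 10 reads. These genes were named after the values had been seen. In input, the regions with the highest level per kilobase were in ZNF318 (2365 CPM per kilobase in KD IN and 1484 in NC IN), ZNF638 (645.6 and 1175), ZNF768 (363.4 and 1320) and ZNF609 (633.7 and 828.7), so that ZNF318 led in both conditions and ZNF768 stood below ZNF609 in KD and above it in NC.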
